A study of Mus musculus with 8 samples.

Results

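The regulators described here act at the step from progenitor to differentiating spermatogonia, the stage at which the male germ line leaves its stem cell pool. They were 8 genes chosen by name: Stra8, Sohlh1, Sohlh2, Neurog3, Dmrt1, Dmrtb1, Sox3 and Kitl. Array probes were assigned to them through their RefSeq accession, and 8 of 41174 probes matched, covering 6 of the 8 genes. Dmrtb1 and Kitl had 2 probes each and Stra8, Sohlh2, Neurog3 and Dmrt1 had 1 each. No probe matched Sohlh1 or Sox3, and these were not analysed here.

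The study compared Thy1+ testis cells of Glis3KO2 mice with those of wild type (WT) mice on 1-colour Agilent arrays, with 4 samples per genotype at postnatal day 4. All mice were on the C57BL/6 strain, the pups stayed with their mother and received no treatment. Glis3 encodes a zinc finger transcription factor, and Thy1 is a membrane protein by which spermatogonial stem and progenitor cells can be enriched. The sources used here do not describe the Glis3KO2 allele, and they give 4 samples per genotype in the labels but 3 testes per genotype in the design text. Separate animals are not stated for the replicates, so each p-value measures only how these samples vary, and that variation may be technical. Slide 1 carried replicates 1 and 3 of both genotypes, and slide 2 carried replicates 2 and 4. On each slide the Glis3KO2 arrays took positions 3 and 4 and the WT arrays positions 1 and 2, so position and genotype cannot be told apart.

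Spermatogonia in the newborn testis divide as stem cells or pass through a progenitor state before they commit to differentiation. Retinoic acid drives that commitment and switches on Stra8, whose product is needed for entry into meiosis. SOHLH1 and SOHLH2 are basic helix-loop-helix factors of spermatogonial differentiation, and NEUROG3 and SOX3 mark the progenitor state. DMRT1 and DMRTB1 are DM domain factors: DMRT1 holds spermatogonia in mitosis and is also made by Sertoli cells, while DMRTB1 acts in the exit from the mitotic phase. Kitl encodes stem cell factor, the growth factor that Sertoli cells supply to differentiating spermatogonia.

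RefSeq start windows ran from 250 bases before to 50 after the annotated start on GRCm38.p6. For 6 of the 8 genes, all but Dmrt1 and Sox3, they were on hand, with 7 windows in all. They were searched on both strands for the E-box CANNTG, to which helix-loop-helix proteins bind, the nuclear receptor core AGGTCA, the DMRT core ACANTGT and the GLIS core GGGGGGT. Stra8 and Kitl are shown because one is a retinoic acid target and the other the somatic ligand among the measured genes. Capitals mark the matches.
Stra8, chr6:34920698-34920997, plus strand: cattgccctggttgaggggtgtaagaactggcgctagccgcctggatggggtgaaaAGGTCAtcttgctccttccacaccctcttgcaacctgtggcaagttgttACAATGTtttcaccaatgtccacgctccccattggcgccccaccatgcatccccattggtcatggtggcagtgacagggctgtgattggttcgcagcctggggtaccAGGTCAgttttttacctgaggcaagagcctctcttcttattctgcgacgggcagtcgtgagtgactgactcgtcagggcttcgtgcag
Kitl, chr10:100015571-100015870, plus strand: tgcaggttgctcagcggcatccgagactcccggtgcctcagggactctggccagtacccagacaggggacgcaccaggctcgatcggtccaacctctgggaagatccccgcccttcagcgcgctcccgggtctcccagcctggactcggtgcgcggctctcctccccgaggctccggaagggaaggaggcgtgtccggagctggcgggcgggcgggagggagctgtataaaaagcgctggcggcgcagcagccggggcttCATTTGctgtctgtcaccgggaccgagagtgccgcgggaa
The Stra8 window held 2 nuclear receptor cores, starting 194 and 38 bases before the start site, and 1 DMRT core starting 145 bases before it. It held no E-box, which 72.3% of all 32851 windows of that length hold, while 16.3% hold a nuclear receptor core and 7.54% a DMRT core. The Kitl window held 1 E-box and none of the other 3 motifs. None of the 7 windows held the GLIS core, which occurs in 5.17% of all windows, and Dmrt1 had no window to search. A match is a description of letters, not a binding site.

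Values are given as a percentage of the array's 75th percentile of signal, so 100 is that percentile. Glis3, the targeted gene, was at 25.3%, 22.1%, 44.1% and 40.2% in Glis3KO2, against 47%, 49.8%, 149% and 151.5% in WT, with a log2 difference of -1.43 (SE 0.45, limma adjusted p = 0.695). Thy1 differed by 0.65 (SE 0.44, limma adjusted p = 0.713), with overlapping groups. The labels do not say which part of the gene Glis3KO2 removes, so the Glis3 probe may lie outside it and is no sure check of genotype. Processed signal at the 75th percentile ranged from 243 to 532 units over the arrays, and 86% to 90.3% of spots were well above background. WT replicates 3 and 4 stood apart from the other arrays on the first principal component, at 69.1 and 60.02 against -55.9 to 3.86.

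None of the measured regulators differed between the genotypes beyond the spread between arrays. Stra8, Neurog3, Dmrt1 and Kitl (4 genes) had a lower mean in Glis3KO2, and Sohlh2 and Dmrtb1 (2 genes) a higher one. Of the 6 genes, 0 passed an adjusted p of 0.05 in limma over all 17513 genes, where 0% of all genes passed in that comparison. At an unadjusted p under 0.05 the count was 0 of 6, against 6.9% of all genes, 2.15% higher and 4.75% lower. The 8 probes taken singly gave 0 as well, against 6.4% of all probes. Likewise 0 of 6 genes had groups that did not overlap, against 3.53% of all genes, 0.902% higher and 2.63% lower. The median log2 difference was -0.40 for these genes and -0.08 for all genes, and the mean in Glis3KO2 was higher for 40.8% and lower for 59.2% of all genes. Single arrays moved the regulators' median: it was -0.14 without Glis3KO2 replicate 2, -0.60 without WT replicate 2, -0.22 without WT replicate 3 and -0.11 without WT replicate 4. It was 0.31, with 3 higher and 3 lower means, when WT replicates 3 and 4 were both left out. All 8 probes were well above background on all 8 arrays, and no array was saturated for any of them.

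**Figure D1:**
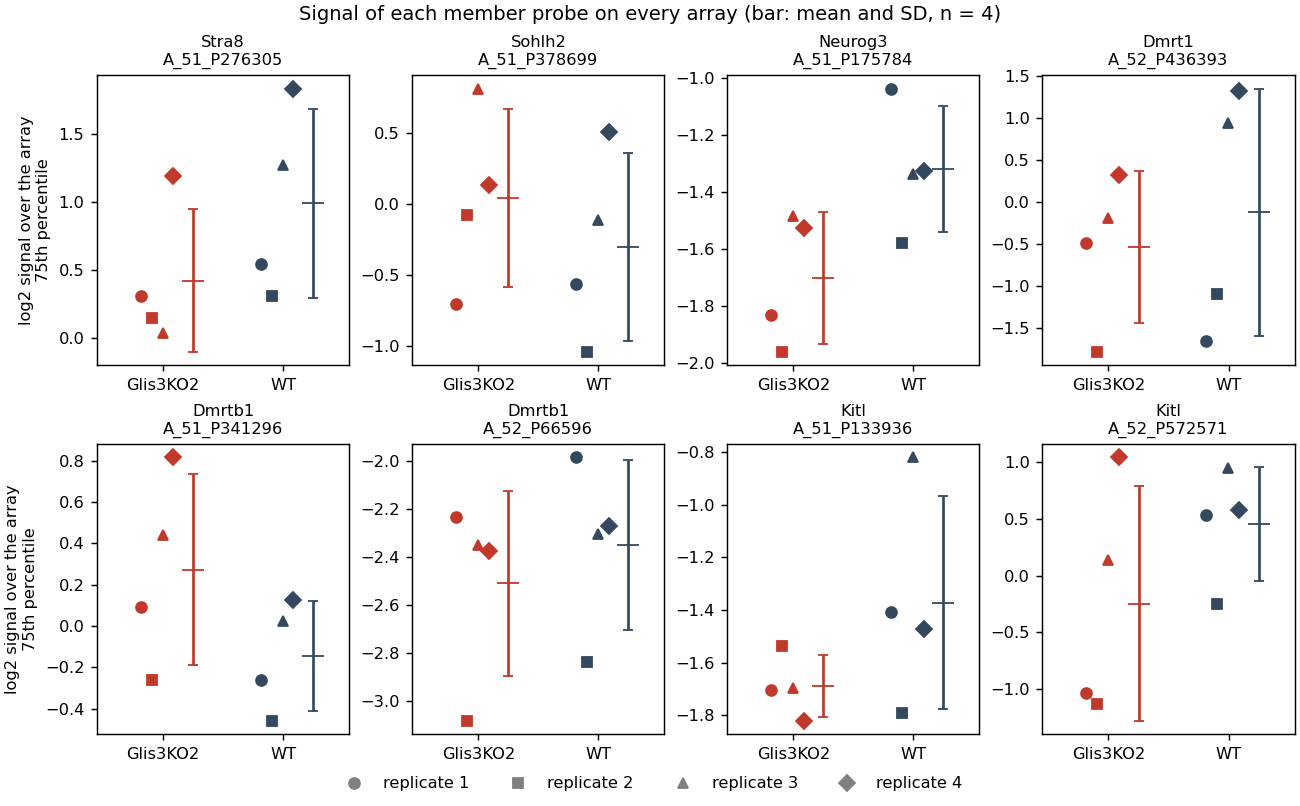
Signal of each of the 8 probes on every array, as log2 of the processed signal over the array's 75th percentile (vertical axis, each panel with its own range), for Glis3KO2 and WT. Points are arrays, marker shapes give the replicate number and bars give the mean and SD (n = 4 each); the groups overlap in every panel.

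Among the regulators of the germ cell itself, Stra8 was at 124%, 111%, 102% and 228% in Glis3KO2 replicates 1 to 4, against 146%, 124%, 241% and 355.5% in WT replicates 1 to 4. WT replicates 3 and 4 were highest, Glis3KO2 replicate 4 came next, and the other arrays lay together. On the log2 scale Stra8 averaged 0.42 ± 0.52 in Glis3KO2 and 0.99 ± 0.69 in WT (SD, n = 4 each). The log2 difference was -0.57 (SE 0.38, 95% interval -1.42 to 0.29), with limma adjusted p = 0.712. It was negative in 4 of 4 numbered pairs, at -0.24, -0.16, -1.23 and -0.64, and within slide 1 (-0.73) and slide 2 (-0.40). Over all genes, 13.6% were lower in every pair. Without WT replicate 4 the difference was -0.29. Leaving out WT replicates 3 and 4 together, a choice made with the data in view, gave -0.01.

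Neurog3, the helix-loop-helix factor of progenitors, had a narrower spread. It was at 28.1%, 25.7%, 35.7% and 34.7% in Glis3KO2, against 48.7%, 33.5%, 39.6% and 39.9% in WT. Only WT replicate 2 lay among the Glis3KO2 arrays, and the other 3 WT arrays were above all of them. The log2 mean was -1.70 ± 0.23 in Glis3KO2 and -1.32 ± 0.22 in WT (SD, n = 4 each), a difference of -0.38 (SE 0.22, 95% interval -0.88 to 0.11, limma adjusted p = 0.695). The log2 difference was negative in 4 of 4 numbered pairs, at -0.79, -0.38, -0.15 and -0.20. Leaving out WT replicates 3 and 4 left it at -0.39, whereas normexp background correction with quantile normalization gave -0.17.

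Sohlh2, whose product pairs with SOHLH1, showed no common direction. Its signal was 61.5%, 94.8%, 176% and 110% in Glis3KO2, against 67.9%, 48.6%, 92.5% and 142% in WT. Glis3KO2 replicate 3 was the highest array and WT replicate 2 the lowest. The log2 difference was 0.34 (SE 0.40, 95% interval -0.54 to 1.23, limma adjusted p = 0.824), with 2 of 4 pairs higher and 2 lower. It depended on single arrays and on the background correction: it was 0.09 without Glis3KO2 replicate 3, 0.10 without WT replicate 2, 0.61 without WT replicate 4, and 0.01 with normexp and the 75th percentile.

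Dmrt1 varied most between arrays of one genotype. Its signal was 71.2%, 29%, 87.8% and 125% in Glis3KO2, against 31.7%, 46.8%, 192% and 248% in WT. WT replicates 3 and 4 were the highest arrays, and WT replicates 1 and 2 lay below 3 of the 4 Glis3KO2 arrays. The SD over WT arrays was 1.47 on the log2 scale, at the 98.2 percentile of the WT SD of all genes. The log2 difference was -0.41 (SE 0.69, 95% interval -1.96 to 1.14, limma adjusted p = 0.878). It was 0.24 over replicates 1 and 2 and -1.06 over replicates 3 and 4, and 0.02 within slide 1 and -0.84 within slide 2. The sign turned when Glis3KO2 replicate 2 (0.01), WT replicate 4 (0.07) or both WT replicates 3 and 4 (0.84) were left out.

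Dmrtb1, also known as Dmrt6, was read by a pair of probes that went opposite ways. The brighter probe, A_51_P341296, was at 107%, 83.3%, 136% and 176% in Glis3KO2, against 83.3%, 72.7%, 102% and 109% in WT. Glis3KO2 replicates 3 and 4 were above all WT arrays, and replicate 2 was at the level of WT replicate 1. Its log2 difference was 0.42 (SE 0.28, 95% interval -0.20 to 1.03, limma adjusted p = 0.709), higher in 4 of 4 pairs, where 7.37% of all genes were higher in every pair. The second probe, A_52_P66596, was at 21.3%, 11.8%, 19.6% and 19.3% in Glis3KO2, against 25.3%, 14%, 20.3% and 20.7% in WT. It differed by -0.16 (SE 0.28, limma adjusted p = 0.907 over 36429 probes) and was lower in 4 of 4 pairs. Across the 8 arrays the pair correlated at Pearson r = 0.35, given as a description, and with the mean of both the gene's difference was 0.13.

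Kitl, the somatic growth factor gene, had the largest difference in size of the 6 genes as reported, but not under every other setting. Its brighter probe, A_52_P572571, was at 48.6%, 45.7%, 110% and 206% in Glis3KO2, against 145%, 84.2%, 194% and 150% in WT. Glis3KO2 replicates 1 and 2 were the lowest arrays and Glis3KO2 replicate 4 was the highest, so the WT arrays lay inside the Glis3KO2 range. The log2 mean was -0.25 ± 1.04 in Glis3KO2 and 0.45 ± 0.50 in WT (SD, n = 4 each). The difference was -0.70 (SE 0.48, 95% interval -1.78 to 0.38, limma adjusted p = 0.713), lower in 3 of 4 pairs. It was -1.19 within slide 1 and -0.21 within slide 2, -1.13 without Glis3KO2 replicate 4 and -0.41 without Glis3KO2 replicate 2. With the mean of both Kitl probes it was -0.51, against -0.57 for Stra8. With normexp and the 75th percentile it was -0.57, against -0.59 for Dmrt1. With normexp and quantile normalization it was -0.46, against -0.49 for Stra8.

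The dimmer Kitl probe, A_51_P133936, was steadier, at 30.7%, 34.5%, 30.9% and 28.3% in Glis3KO2, against 37.7%, 28.9%, 56.7% and 36.1% in WT. WT replicate 3 stood highest and WT replicate 2 fell among the Glis3KO2 arrays. Its log2 difference was -0.32 (SE 0.26, limma adjusted p = 0.798 over 36429 probes), and the Kitl probes correlated at r = 0.37 over the 8 arrays, again a description. Both probes carry the same accession. Whether they detect the same transcript forms was not tested.

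**Figure D2:**
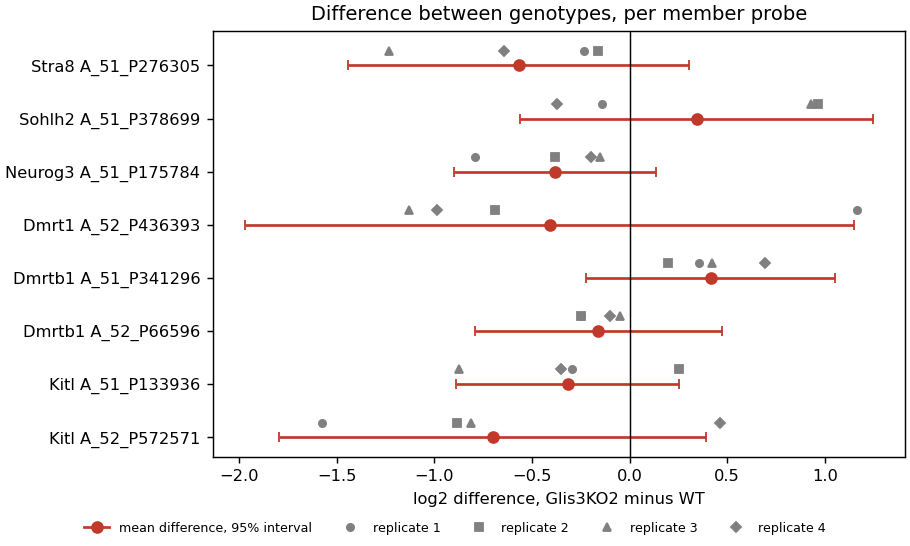
Log2 difference, Glis3KO2 minus WT (horizontal axis), for each of the 8 probes, with the mean difference and its 95% interval from the fit over all probes and, in grey, the 4 differences between arrays of the same number. Every interval includes 0, and all 4 grey points lie on one side of 0 for Stra8, Neurog3 and both Dmrtb1 probes, with the Dmrtb1 probes on opposite sides.

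RNA was measured in bulk, so fewer cells of a type and less RNA per cell cannot be told apart. Markers of other cell types were detected: all 15 measured Sertoli markers and all 10 of peritubular and smooth muscle were well above background on all 8 arrays, as were all 12 of germ cells. So were 14 of 15 stroma, 6 of 7 Leydig cell, 7 of 8 endothelial and 11 of 12 macrophage markers. Measured genes had already passed the filter of at least 4 arrays. Of all 17513 such genes, 16120 had a probe well above background on all 8 arrays. The counts therefore show detection only, not more than for genes in general. The labels call the cells spermatogonial progenitors. The summed signal of the Sertoli markers ranged from 2424% to 4333% in Glis3KO2 and from 2934% to 5258% in WT. The germ cell sum ranged from 2718% to 4755% in Glis3KO2 and from 3015% to 11900% in WT. The smooth muscle sum ranged from 5456% to 16410% in Glis3KO2 and from 3340% to 10210% in WT. The mean in Glis3KO2 was higher for 15 of 15 stroma markers (median log2 difference 0.98) and for 10 of 10 smooth muscle markers (0.96), and 0 of either passed over all genes (limma; 4 and 2 at an unadjusted p under 0.05, against 2.15% of all genes). It was lower for 12 of 12 germ cell genes (median -0.97), of which 0 passed (limma; 6 at an unadjusted p under 0.05, against 4.75% of all genes). Without WT replicates 3 and 4 these medians were 0.43, 0.28 and -0.15. Without WT replicate 4 alone, 9 of 12 germ cell genes had a lower mean, with a median of -0.60. Their part in the differences of the regulators was not tested.

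The signal of the regulators was set beside the mean of each of 11 gene lists over the 8 arrays, with each gene centred, giving 88 relations for the 8 probes. These relations were chosen after seeing the data, and all arrays share 1 scaling. The share of all genes that follow these lists as closely was not computed. The relations are therefore not shown to be particular to the regulators. With all 8 arrays permuted freely, 3 of the 88 relations passed 0.05 after Benjamini-Hochberg adjustment and 19 had an unadjusted p under 0.05. Free permutation ignores that same-numbered arrays deviated together. With those arrays kept together as pairs, 0 of the 88 passed and 18 had an unadjusted p under 0.05. That exact permutation has 384 arrangements and a smallest p of 0.0026, which Kitl with the Sertoli list, Dmrt1 with the differentiating spermatogonia list, and Stra8 with the smooth muscle and germ cell lists reached (adjusted 0.0573 each). The 3 relations that passed with free permutation were among these and could have no lower p. The 0 of 88 therefore decides nothing about them. A slide held 4 arrays, too few for a correlation of its own. The exact permutation p and adjusted values given below for single relations come from free permutation, which ignores the pairing.

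Kitl followed the Sertoli markers. Their centred mean was -0.57, -0.54, -0.20 and 0.52 in Glis3KO2 replicates 1 to 4, against 0.21, -0.32, 0.49 and 0.40 in WT, in close to the order of the brighter Kitl probe. Pearson's r was 0.965 (exact permutation p = 7.4e-05, adjusted 0.00327) and Spearman's rho 0.976 (exact permutation p = 0.000397). Without the 2 arrays farthest from the median, Glis3KO2 replicates 1 and 2, r was 0.967, and leaving out single arrays gave 0.953 to 0.983. The dimmer Kitl probe had r = 0.446 with the same list (exact permutation p = 0.274, adjusted 0.452).

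Dmrt1 followed the list of differentiating spermatogonia genes, whose centred mean was -0.15, -0.37, -0.09 and 0.14 in Glis3KO2, against -0.28, -0.28, 0.40 and 0.62 in WT. Pearson's r was 0.961 (exact permutation p = 5e-05, adjusted 0.00327), Spearman's rho was 0.976 (exact permutation p = 0.000397), and r was 0.948 without WT replicates 3 and 4, the farthest arrays. With the general germ cell list Dmrt1 had r = 0.876 (exact permutation p = 0.0025, adjusted 0.0551), and 0.676 without these 2 arrays. With the Sertoli list it had r = 0.658 (exact permutation p = 0.0855, adjusted 0.263). The difference between these values of r was not tested.

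Stra8 ran against the peritubular and smooth muscle list, whose centred mean was 0.65, 1.13, 0.63 and -0.56 in Glis3KO2, against -0.16, 0.47, -0.91 and -1.26 in WT. Pearson's r was -0.955 (exact permutation p = 0.000397, adjusted 0.0116), Spearman's rho was -0.881 (exact permutation p = 0.00724), and r was -0.892 without WT replicates 3 and 4. Stra8 had r = 0.913 with the differentiating spermatogonia list (exact permutation p = 0.00357, adjusted 0.0629), and 0.677 without these arrays. Its relation to the germ cell list, r = 0.877 (exact permutation p = 0.00451, adjusted 0.0662), weakened to 0.475 without them and so rested on them. With the Sertoli list Stra8 had r = 0.833 (exact permutation p = 0.0133, adjusted 0.117), and 0.837 without Glis3KO2 replicates 1 and 2. Neurog3 had r = 0.737 with that list (exact permutation p = 0.037, adjusted 0.192), and 0.351 without those 2 arrays. Sohlh2, Neurog3 and Dmrtb1 had no relation that passed under either permutation.

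**Figure D3:**
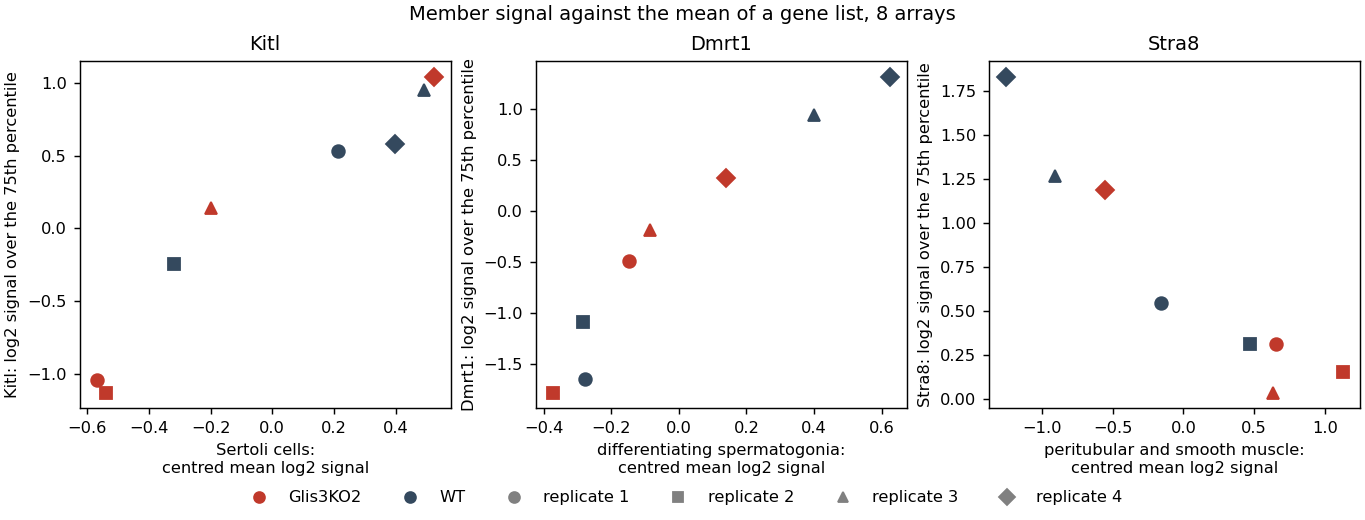
Log2 signal of Kitl (brighter probe), Dmrt1 and Stra8 on each of the 8 arrays (vertical axes) against the centred mean log2 signal of the Sertoli, differentiating spermatogonia and peritubular and smooth muscle lists (horizontal axes); colour gives the genotype and marker shape the replicate. Kitl (r = 0.965) and Dmrt1 (r = 0.961) increase with their list and Stra8 (r = -0.955) decreases, with arrays of both genotypes along each line.

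Each array was also scaled on the mean of the 12 measured genes of the general germ cell list in place of the 75th percentile, a choice made with the data in view. This adds the same 0.83 to every gene's log2 difference and so cannot change their order, and the median of all genes becomes 0.74. The size of the shift rests largely on WT replicates 3 and 4, in which that list was highest. On that scale Sohlh2 was at -0.78, 0.01, 0.18 and -0.58 in Glis3KO2, against -0.93, -1.502, -1.72 and -1.72 in WT, and Dmrtb1 at 0.01, -0.17, -0.20 and 0.10 in Glis3KO2, against -0.63, -0.92, -1.58 and -2.10 in WT. The groups of both genes did not overlap, with log2 differences of 1.17 (SE 0.53) and 1.24 (SE 0.53), where 4.27% of all genes had higher and 0.04% lower groups without overlap. Neither passed (limma adjusted p = 0.400 for both, 0% of all genes called). Among all genes the differences of Sohlh2 and Dmrtb1 stood at the 85.2 and 88.2 percentiles. For Dmrtb1 this is the brighter probe; the second, A_52_P66596, is at 0.67 on this scale, below the median of all genes. Stra8 at 0.26, Neurog3 at 0.45, Dmrt1 at 0.42 and Kitl at 0.13 also lay below that median, as they did before scaling.

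Of the retinoic acid list, 20 of 22 genes were measured, covering synthesis, breakdown, binding, receptors and the early target Rec8. Their means were higher in Glis3KO2 for 9 and lower for 11, with a median log2 difference of -0.04 (-0.10 to 0.02 with single arrays left out). In limma 0 passed over all genes. At an unadjusted p under 0.05, 0 were lower and 1 higher, against 4.75% and 2.15% of all genes. That gene was Rbp4, the plasma retinol carrier, at 1.02 (SE 0.42, limma adjusted p = 0.695), and at 0.48 with normexp and the 75th percentile. Rara, the retinoic acid receptor alpha, differed by 0.74 (SE 0.38) and Aldh1a2, a retinaldehyde dehydrogenase that makes retinoic acid, by 0.99 (SE 0.55), each with limma adjusted p = 0.695. Rxrg, a retinoid X receptor, differed by -0.66 (SE 0.33, limma adjusted p = 0.695), and by -0.14 with normexp and quantile normalization.

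Among other genes of differentiating spermatogonia, 10 of 12 were measured, with 3 higher and 7 lower means and a median of -0.33. In limma 0 passed. At an unadjusted p under 0.05, 0 were higher and 1 lower, against 2.15% and 4.75% of all genes. The median was -0.18 without Glis3KO2 replicate 2, -0.22 without WT replicate 3 and -0.14 without WT replicate 4. With both of these WT arrays left out it was 0.02, with 5 higher and 5 lower means. Uhrf1, which recruits the maintenance DNA methyltransferase, had all Glis3KO2 arrays below all WT arrays, as did 2.63% of all genes. It differed by -0.60 (SE 0.26, limma adjusted p = 0.695), and by -0.23 without WT replicates 3 and 4. Sall1, a zinc finger factor, differed by -0.58 (SE 0.37), Prss50, a serine protease of the testis, by -0.36 (SE 0.23) and Dnmt3b, a de novo DNA methyltransferase, by -0.47 (SE 0.43). The 18 stem and progenitor genes had 17 lower means and a median of -0.80, with 0 past the threshold (limma; 7 lower at an unadjusted p under 0.05, against 4.75% of all genes). Their median was -0.37 with normexp and quantile normalization, and -0.45 with 14 of 18 lower when WT replicates 3 and 4 were left out. The 4 of smallest p were Nanos3 at -1.16 (SE 0.26), Bcl6b at -1.37 (SE 0.34), Tcl1 at -0.96 (SE 0.28) and Cdh1 at -0.99 (SE 0.32). Each had limma adjusted p = 0.695. With normexp and quantile normalization they were at -0.70, -1.09, -0.72 and -0.22.

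Paralogs of the regulators were read for comparison, namely other DMRT genes, Sox1, and the neurogenins. Of 10 listed, 9 were measured, 2 with higher and 7 with lower means and a median of -0.41. In limma 0 were past the threshold, and 0 had an unadjusted p under 0.05, against 6.9% of all genes. Dmrt3 differed by -0.60 (SE 0.35), Dmrtc2 by -0.85 (SE 0.48) and Sox1 by -0.41 (SE 0.24). Dmrta2 differed by -1.38 (SE 0.88) but cleared the background threshold on just 1 Glis3KO2 array and on 3 WT arrays. Sox2 did not pass the filter on dim probes. With normexp and quantile normalization the paralog median was -0.06 and that of all genes -0.03.

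**Figure D4:**
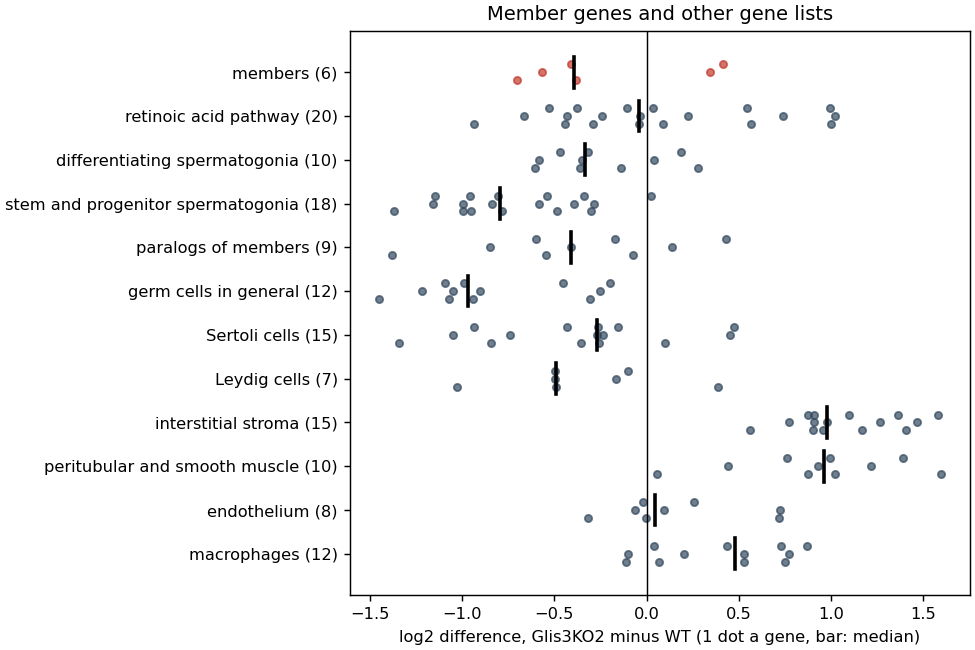
Log2 difference, Glis3KO2 minus WT (horizontal axis), of each measured gene (dots) in the regulators and the other lists, with the median of each list as a bar and the number of genes in brackets. The regulators lie between -0.70 and 0.42 with a median of -0.40, the germ cell list lies wholly below 0 and the stroma list wholly above it.

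Genes whose signal was most like that of each regulator were taken from 15433 genes well above background on all 8 arrays, by Pearson's r over these arrays. Dpep3 (0.965), Gemin5 (0.956) and Hoxb13 (0.954) were nearest to Stra8. Fem1c (0.951), Knl1 (0.932) and Olfr1350 (0.928) were nearest to Sohlh2. For Neurog3 the nearest were Olfr868 (0.975), Trhr2 (0.975) and Xirp1 (0.973), and for Dmrt1 they were Il17b (0.989), Ckap5 (0.977) and Dazl (0.975), the last an RNA-binding protein of germ cells. Ceacam10 (0.970), Wasl (0.962) and Mbnl1 (0.946) were nearest to Dmrtb1, and Rhpn1 (0.982), Chst4 (0.982) and Otx1 (0.974) to Kitl. With 8 arrays and this many genes such values are a description only. The levels of these genes were far apart. Over the arrays Il17b was at 5.47% to 9.23% of the 75th percentile and Ceacam10 at 3.68% to 15.2%, both dim, and Dazl at 1558% to 5961%. Between the regulators themselves r ranged from 0.02 for Neurog3 with Dmrtb1 to 0.80 for Stra8 with Dmrt1.

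**Figure D5:**
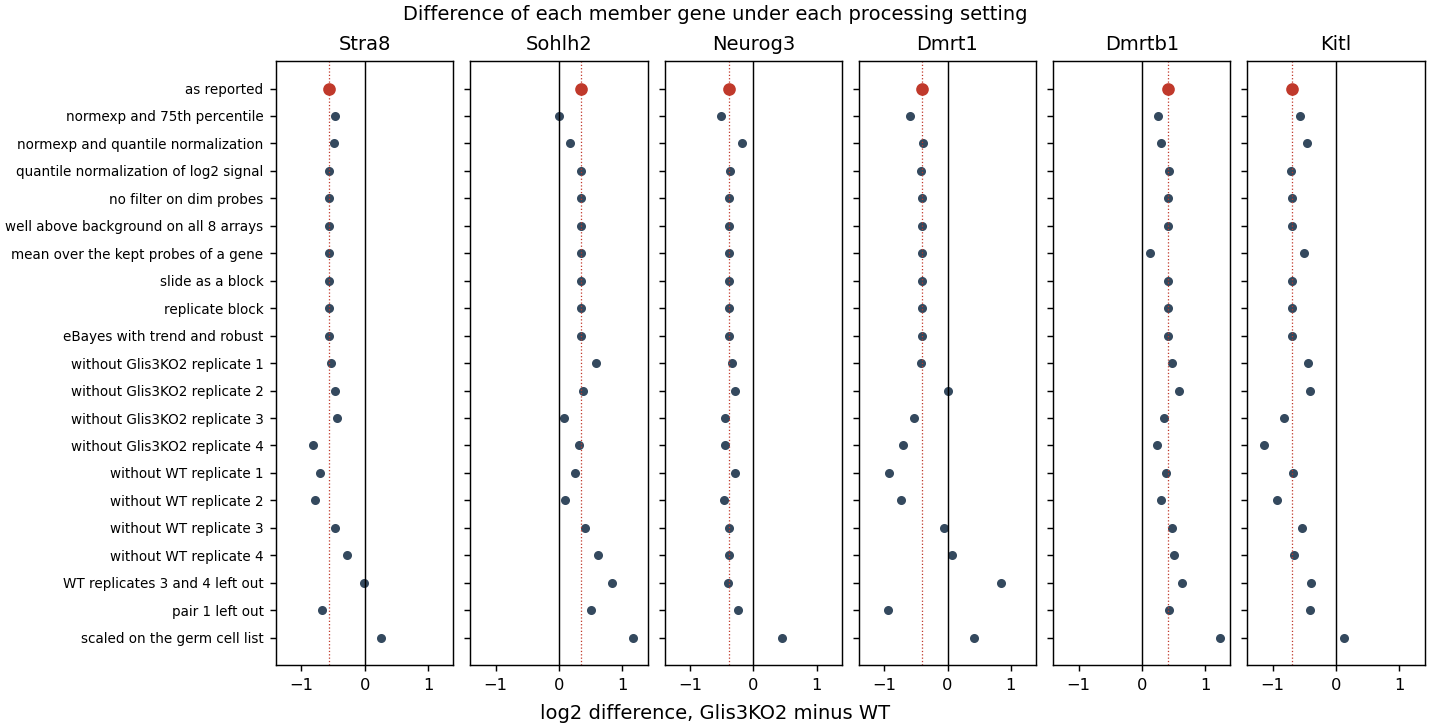
Log2 difference, Glis3KO2 minus WT (horizontal axis), of the 6 measured genes as reported (red, top row) and under each of 20 other settings (dark points, rows). The filters, blocks and eBayes options (5 rows) leave every difference where it is, and the germ cell scale adds 0.83 to all genes alike. Dmrt1 also moves across 0 without Glis3KO2 replicate 2 (0.007), WT replicate 4 (0.07) or both WT replicates 3 and 4 (0.84).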

How the data were processed

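The deposited files are the scanner output of 8 one-colour Agilent arrays, written by version 12.0.0.7 of Feature Extraction, per the file headers. The authors deposited processed signal intensity per spot, whose headers record background subtraction and spatial detrending. Their deposited value table equalled the processed signal on 100% of spots. Per the labels' protocols, RNA was amplified before Cy3 labelling, so the signal also carries the amplification.

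Control and outlier spots were left out, spots of a probe averaged, and log2 signal taken relative to each array's 75th percentile. A probe was kept if well above background on at least 4 arrays. Probes were named through RefSeq accessions (GRCm38.p6): 28223 of 41174 probes had 1 gene, 0 several and 12951 none. The brightest kept probe stood for a gene. Genotypes were compared in limma 3.58.1 (R 4.3.3) over 17513 genes, with Benjamini-Hochberg adjustment and a threshold of 0.05. Probe values came from the same fit over 36429 probes. The number of arrays limits the precision. On simulated data, 62% of genes changed by 1.5 and 98% of those changed by 3 (log2) were recovered among 17513 genes with 200 changed, with 11 false calls. Differences as small as those of the regulators, -0.70 to 0.42, were not simulated, so these shares do not apply to them.

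The members and lists were chosen with earlier results of these data known. Named were all members and their probes, Glis3, Thy1 and the 3 genes most like each member. From the retinoic acid, differentiating spermatogonia, stem and progenitor, and paralog lists the 4 genes of smallest p were named. The other lists were given by counts, medians and levels. Same-numbered arrays, paired by the label numbers, deviated together (r = 0.16, 0.34, 0.18 and 0.13). For replicates 3 and 4 the number does not single out the pair, since Glis3KO2 replicate 4 with WT replicate 3 had r = 0.14 and Glis3KO2 replicate 3 with WT replicate 4 had r = 0.12. Alternatives were normexp (offset 50), quantile normalization, other filters and probe rules, slide or replicate blocks, and leaving out arrays. Normexp used the median spot signal, since the files hold no mean signal. Leaving out WT replicates 3 and 4 or pair 1, scaling on the germ cell list, the relations to lists and their permutation with pairs kept together were added after seeing the data.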

Additional observations from a re-analysis of the deposited data

Results flagged for a closer look

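Glis3KO2 replicate 2 stood apart from the other Glis3KO2 arrays for the dimmer Dmrtb1 probe, A_52_P66596, at -3.08 on the log2 scale against -2.37 for the nearest array. The gap was 0.834 of the group's range, above Dixon's 95% critical value for 4 samples. It was 1 of 16 groups checked, and chance flags about 1 in 20. WT replicate 2 was likewise the lowest WT array for this probe, at -2.84 against -2.30 for WT replicate 3, the nearest.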

How the results depend on the processing

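No setting brought any of the 6 genes past the threshold (smallest limma adjusted p = 0.395, for Stra8). Of 20 other settings, 5 (filters, blocks and eBayes options) cannot move a log2 difference. The germ cell scale adds 0.83 to every gene, which by construction gives a positive sign to Stra8 (0.26), Neurog3 (0.45), Dmrt1 (0.42) and Kitl (0.13), all below the shifted median of 0.74. Under the other 14, Dmrt1 kept its sign in 11 and each of the other 5 genes in 14. Among these settings, the mean over the probes of a gene can move Dmrtb1 and Kitl alone. Values near 0 also count as a kept sign. Stra8 was at -0.007 without WT replicates 3 and 4, and Sohlh2 at 0.006 with normexp and the 75th percentile. Dmrt1 turned without WT replicates 3 and 4 (0.84), and leaving out single arrays took it from -0.92 to 0.07, with 0.0069 without Glis3KO2 replicate 2 and 0.069 without WT replicate 4. Leaving out single arrays gave -0.82 to -0.29 for Stra8, 0.09 to 0.61 for Sohlh2, -0.47 to -0.29 for Neurog3, 0.23 to 0.59 for Dmrtb1 and -1.13 to -0.41 for Kitl. The number of genes called was 0, and 1 with quantile normalization of the log2 signal: Gm16702 (log2 difference -2.63, limma adjusted p = 0.0245), named after its values were seen. Leaving out single arrays gave 668 (without WT replicate 3) to 2397 (without WT replicate 2) genes at an unadjusted p under 0.05. The replicate block changed no call: it gave 0 called genes and 1880 at an unadjusted p under 0.05, against 1208 without it. With it the unadjusted limma p went from 0.171 to 0.0607 for Stra8, 0.178 to 0.0808 for Kitl and 0.165 to 0.0819 for Dmrtb1. It went from 0.408 to 0.294 for Sohlh2, 0.568 to 0.345 for Dmrt1 and 0.117 to 0.121 for Neurog3. The smallest adjusted p among them was 0.477, for Stra8. With same-numbered arrays kept together, 0 of 88 relations passed, against 3 with free permutation. Those 3 were at the smallest p that the paired permutation can give (0.0026, adjusted 0.0573), so it could not decide on them. The germ cell scale is a common shift and tests no cause, and the causes of the other changes were not tested.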
